A study of Homo sapiens with 18 samples.

Results

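HOXA10, HOXA9, HOXA11, MEOX1, FOXN4, TEAD4 and APBA2 were followed across PIK3R1 knockout and control leukaemia cells. They are 7 of the 58735 genes in the count table, picked by symbol because earlier results of these data had them higher in knockout cells or kept under CB-103. Differences between knockout and control cells, and responses to CB-103, are therefore given for them as values with no test, for levels and for the makeup of transcripts alike. Responses to the gamma-secretase inhibitor were not themselves used in that choice, and were tested. Their libraries also enter the knockout and control differences that the choice used, so these tests are not independent of it. This holds most for the difference of that response between genotypes, which is built from those same differences.

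The cells were RPMI-8402, a human T cell acute lymphoblastic leukaemia line in which NOTCH1 signalling is constitutively active. PIK3R1 knockout (KO) cells and cells with a non-targeting control (NT, genotype given as WT) each received CB-103, the gamma-secretase inhibitor LY3039278 (GSI) or the vehicle DMSO for 24 hours, which made 6 groups of 3 libraries: KO CB-103, KO GSI, KO DMSO, NT CB-103, NT GSI and NT DMSO. PIK3R1 encodes p85 alpha, the regulatory subunit of class I PI3 kinase. CB-103 acts on the NOTCH transcription complex in the nucleus, and GSI blocks the cleavage that frees the NOTCH intracellular domain. The labels do not say whether the KO cells were 1 clone or a pool, nor whether the libraries of a group came from separate cultures, so p-values measure the spread between these libraries, which may be technical, and 1 line of each genotype was compared. No date or batch is given.

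HOX genes encode homeodomain factors that set position along the body axis in the embryo, and the posterior HOXA genes, HOXA9 and HOXA10 above all, are kept on in blood progenitors and in a subset of T cell leukaemias. HOX proteins bind DNA together with TALE cofactors of the PBX and MEIS families. MEOX1 is a homeodomain factor of the somites, FOXN4 a forkhead factor of retinal and spinal cord interneuron progenitors that switches on the NOTCH ligand DLL4 in mouse retina, and TEAD4 a DNA-binding partner of YAP and TAZ, the coactivators that the Hippo kinases hold in check. APBA2 is no transcription factor: it is a cytoplasmic adaptor, also called X11-like or MINT2, that binds the amyloid precursor protein APP.

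The name of the set, developmental factors that differ in knockout cells, described 4 of the 7 genes: HOXA10, FOXN4, TEAD4 and MEOX1 are developmental factors, and no KO library of any treatment overlapped an NT library of that treatment. The genes were chosen on this difference, so the lack of overlap describes the choice. How many of all genes tested show the same was not counted. HOXA10, FOXN4 and TEAD4 were higher in KO cells, while MEOX1 was lower in KO cells under DMSO and GSI and slightly higher under CB-103. APBA2 was higher in KO cells too but is an adaptor. HOXA9 and HOXA11 were at or near the detection limit in all 18 libraries. In all, 5 of the 7 passed the filter on low counts, and HOXA9 and HOXA11 did not. In the plot of levels by library these patterns can be read directly.

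**Figure D1:**
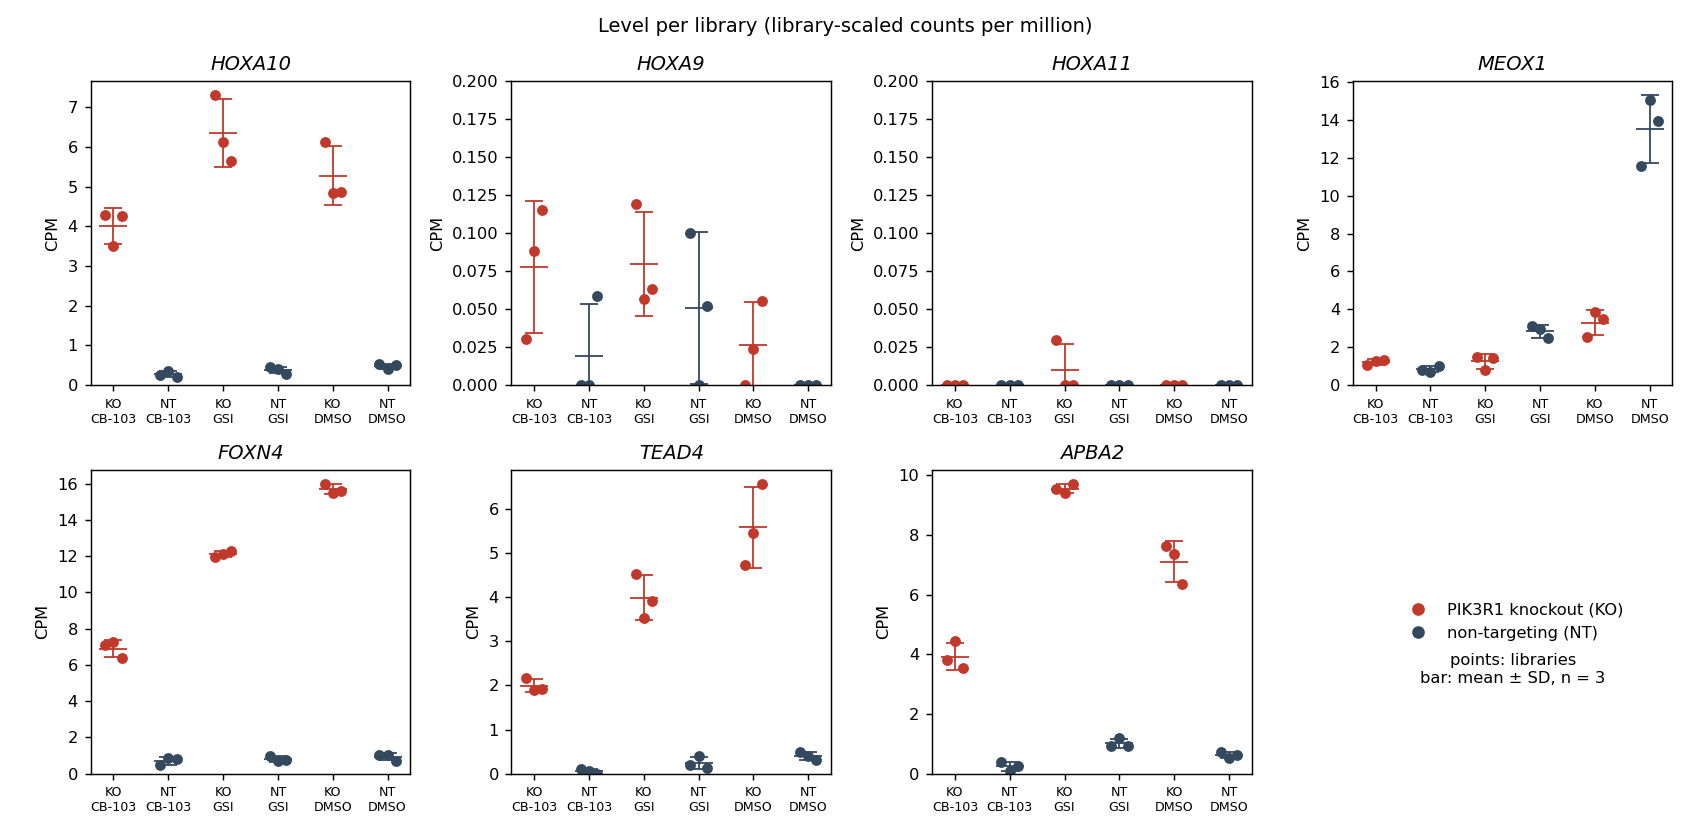
Counts scaled to library size (CPM) of the 7 genes in each of the 18 libraries (points) with the group mean ± SD (bars, n = 3), KO in red and NT in blue for each treatment. HOXA10, FOXN4, TEAD4 and APBA2 stand above NT in every KO group, MEOX1 is highest in NT DMSO at 11.5 to 15.1 CPM, and HOXA9 and HOXA11, on a much smaller axis, lie near 0.

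Library totals ran from 30416183 to 43558387 counts, so that 3 counts, the floor used for a gene at 0, corresponded to 0.0689 to 0.0986 CPM. The floor covers counting error only. All 8 T cell markers were detected, at a summed 995 to 1840 CPM, while the 5 B cell markers summed to 1.27 to 5.67 CPM, the 5 myeloid ones to 1.05 to 3.43 CPM, the 5 erythroid ones to 0 to 0.192 CPM and the 6 adherent and stromal ones to 2.73 to 25.9 CPM. The adherent and stromal sum was lower in KO than in NT libraries under GSI, at 8.75 to 12.4 against 18.7 to 25.9 CPM, and under DMSO, at 8.02 to 12.5 against 15.8 to 18.8 CPM, while under CB-103 the groups overlapped. The B cell sum was higher in KO than in NT libraries in all 3 treatments, at 2.37 to 3.37 CPM in KO CB-103 against 1.27 to 1.66 CPM in NT CB-103, 3.85 to 5.67 CPM in KO GSI against 2.31 to 2.76 CPM in NT GSI, and 3.5 to 4.06 CPM in KO DMSO against 2.72 to 3.12 CPM in NT DMSO. The T cell sum was lower in KO DMSO, at 1460 to 1570 CPM, against 1750 to 1840 CPM in NT DMSO, and the genotypes overlapped under CB-103 and GSI. The part of these sums in the results was not tested. PIK3R1 itself averaged 22.5 ± 1.02 CPM in KO DMSO against 44.1 ± 1.53 CPM in NT DMSO, and 27.8 ± 4.16 CPM in KO GSI against 53.6 ± 3.22 CPM in NT GSI (SD, n = 3). Under CB-103 it averaged 27.8 ± 2.01 CPM in KO against 31.1 ± 2.21 CPM in NT cells, a difference that did not pass the test (edgeR adjusted p = 0.17), so the PIK3R1 level does not check the genotype label of the CB-103 libraries.

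The sequences that the results turn on are those of HOXA10, the only tested gene of its cluster that was far higher in KO cells, and of FOXN4, the gene with the largest difference under DMSO. RefSeq promoters (250 bases before to 50 after a start site, build GRCh38.p14) were on hand for 5 of the 7 genes, 10 promoters in all; MEOX1 and TEAD4 were not among them. The proximal HOXA10 promoter lies on the minus strand at chr7:27174271-27174570, and the FOXN4 promoter on the minus strand at chr12:109309235-109309534. Capitals mark TGGGAA, the core bound by RBPJ, the DNA-binding partner of NOTCH.
HOXA10: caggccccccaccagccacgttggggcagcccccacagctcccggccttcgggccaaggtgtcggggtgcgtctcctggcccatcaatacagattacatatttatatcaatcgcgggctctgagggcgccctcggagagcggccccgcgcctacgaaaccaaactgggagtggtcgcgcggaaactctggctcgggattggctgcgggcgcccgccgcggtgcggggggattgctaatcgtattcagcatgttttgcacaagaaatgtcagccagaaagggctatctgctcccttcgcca
FOXN4: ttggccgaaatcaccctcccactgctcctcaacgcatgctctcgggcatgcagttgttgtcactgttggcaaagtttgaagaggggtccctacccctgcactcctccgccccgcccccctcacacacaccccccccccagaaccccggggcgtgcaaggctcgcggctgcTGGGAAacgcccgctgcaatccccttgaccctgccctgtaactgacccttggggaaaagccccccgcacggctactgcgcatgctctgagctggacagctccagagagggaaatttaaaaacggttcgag
TGGGAA stood in the FOXN4 promoter 80 bases before the start site, on the strand of the gene. It was absent, on both strands, from the proximal HOXA10 window, as were the FOXO core TGTTTAC, the TEAD core GGAATG and the MYC E-box CACGTG. Of 35116 RefSeq promoters of the same length, 24.0% held TGGGAA, 3.42% TGTTTAC, 14% GGAATG and 7.26% CACGTG on either strand. GGAATG occurred in the distal HOXA10 promoter, 234 bases before its start. CACGTG occurred in the HOXA9 promoter, 71 bases before its start, and TGGGAA in 2 of the 5 APBA2 promoters, 101 and 233 bases before the start. These are matches of letters and not binding sites.

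HOXA10 (ENSG00000253293, hg38 chromosome 7, 27170591 to 27180261, minus strand) is a posterior gene of the HOXA cluster. It had 6.13, 4.84 and 4.86 CPM in KO DMSO, against 0.52, 0.401 and 0.493 CPM in NT DMSO. The lowest KO library was thus far above the highest NT library, and the fitted log2 fold change was 3.47 ± 0.199 (SE), or 11.1-fold. HOXA10 had 4.29, 3.49 and 4.26 CPM in KO CB-103, against 0.264, 0.35 and 0.204 CPM in NT CB-103, a log2 fold change of 3.87 ± 0.216. It had 7.3, 6.13 and 5.64 CPM in KO GSI, against 0.451, 0.399 and 0.286 CPM in NT GSI, a log2 fold change of 4.06 ± 0.205. In all 3 treatments the NT libraries held HOXA10 reads above the floor, so it was low rather than absent in NT cells.

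Over all 17346 genes tested, 21.4% passed an adjusted p of 0.05 (edgeR) between KO and NT cells under DMSO, 37% under CB-103 and 33.8% under GSI; KO and NT cells thus differed widely, and a difference between them is not peculiar to these genes. Among the 17346 log2 fold changes under DMSO, counted from the highest, FOXN4 ranked 31, TEAD4 34, APBA2 48 and HOXA10 49, and MEOX1 ranked 72 counted from the lowest. Since these genes were chosen on this difference, the ranks describe the choice.

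Nearly all HOXA10 expression was assigned to 1 transcript. HOXA10-206 (ENST00000613671, chromosome 7, 27170592 to 27174255) held 98.1% of the gene's TPM, the abundance scaled by transcript length and library size, over the 18 libraries. It averaged 5.49 ± 0.629 TPM in KO DMSO against 0.466 ± 0.0564 TPM in NT DMSO (SD, n = 3). HOXA10-201 (ENST00000283921, 27170591 to 27174306) held 0.379%, from 6.67 estimated reads, and HOXA10-202, which starts at the distal end of the gene at 27180261, had 0 reads. The nearest RefSeq start site to either proximal transcript is 27174320, 14 bases from the annotated start of HOXA10-201, so the HOXA10 reads were assigned to transcripts that start at or just past the proximal promoter printed above.

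The 2 proximal transcripts differ by a stretch of 314 bases inside the first coding exon, chromosome 7, 27173618 to 27173931, that HOXA10-206 lacks and HOXA10-201 keeps. The sequences below, both from the GENCODE release 29 transcripts on the minus strand, give the last 25 bases before that stretch in lower case and the next 25 bases of each transcript in capitals.
HOXA10-206: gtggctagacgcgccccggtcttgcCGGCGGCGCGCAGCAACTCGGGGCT
HOXA10-201: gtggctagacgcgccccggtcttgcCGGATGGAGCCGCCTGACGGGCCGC
The 314 bases leave a remainder of 2 on division by 3, so the annotated reading frame differs past the junction. HOXA10-201 is annotated with 1230 coding bases, 272 of them in the last exon, which encodes the DNA-binding homeodomain. HOXA10-206 is annotated with 606, only 13 of them in the last exon. The missing stretch begins with CG and ends with GG, is 72.3% G or C, and in none of the 4 placements that give the same spliced sequence does it begin with GT and end with AG, the usual ends of an intron. Both transcripts share most of their length, the assignment is Salmon's estimate, and whether reads cross this junction was not tested, since the reads were not used here.

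HOXA9 (ENSG00000078399, chromosome 7, 27162435 to 27175180, minus strand) overlaps HOXA10 on the same strand. It is the HOXA gene most often tied to leukaemia, and here it had 27 counts in all libraries together and never more than 4 in one. It had 0, 1 and 2 counts in KO DMSO, against 0 in each NT DMSO library. The KO CB-103 libraries had 1, 3 and 4 counts, against 0, 0 and 2 in NT CB-103, and the KO GSI libraries had 4, 2 and 2, against 4, 0 and 2 in NT GSI. Counts of this size overlap between the genotypes under each treatment, and no fold change is given. HOXA11 (ENSG00000005073, chromosome 7, 27181510 to 27185223, minus strand), a factor of limb, kidney and uterus, had 1 count, in 1 KO GSI library, and 0 in the other 17, each of which allows up to 3 counts. A transcript that runs from HOXA10 into HOXA9 (AC004080.3) had 0 counts in every library. The antisense RNA HOXA10-AS had 1 count in all, HOXA11-AS had 2 and HOTTIP, a long noncoding RNA at the posterior end of the cluster, had 17.

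The rest of the HOXA cluster did not follow HOXA10. Of the 8 other HOXA genes, 7 were tested, and between KO and NT cells 0 passed the edgeR test under DMSO, 2 were lower under CB-103 and 1 was lower under GSI. Their median log2 fold changes were -0.29 under DMSO, -0.08 under CB-103 and -0.35 under GSI, beside 0.005, -0.001 and -0.003 over all genes tested. HOXA13, the most posterior of them, was lower in KO cells, with a log2 fold change of -1.22 ± 0.337 under CB-103 (edgeR adjusted p = 0.0088) and -1.15 ± 0.28 under GSI (adjusted p = 0.0042). HOXA7 was lower at -1.78 ± 0.652 under CB-103 (adjusted p = 0.041). Its libraries overlapped there, at 0.117 to 0.3 CPM in KO CB-103 against 0.264 to 1.25 CPM in NT CB-103. That call rests on few reads, 20 counts in KO CB-103 and 71 in NT CB-103. The HOXA13 call under CB-103 rests on few as well, 19 counts in KO CB-103 and 47 in NT CB-103. HOXA5, the most abundant by CPM, averaged 4.95 CPM in KO DMSO against 6.32 CPM in NT DMSO and passed in none of the 3. Of the 3 tested genes of the flanks, JAZF1, which encodes a zinc finger protein, was higher in KO cells by a log2 fold change of 1.84 ± 0.143 under CB-103, 1.19 ± 0.138 under GSI and 1.08 ± 0.137 under DMSO (edgeR adjusted p = 3.2e-08, 5e-06 and 1.5e-05). HIBADH and TAX1BP1, which start nearer the cluster, did not pass. JAZF1 overlaps the end of TAX1BP1 on the opposite strand. Of 6 HOXA antisense and noncoding RNAs, 2 were tested and neither passed between genotypes.

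**Figure D2:**
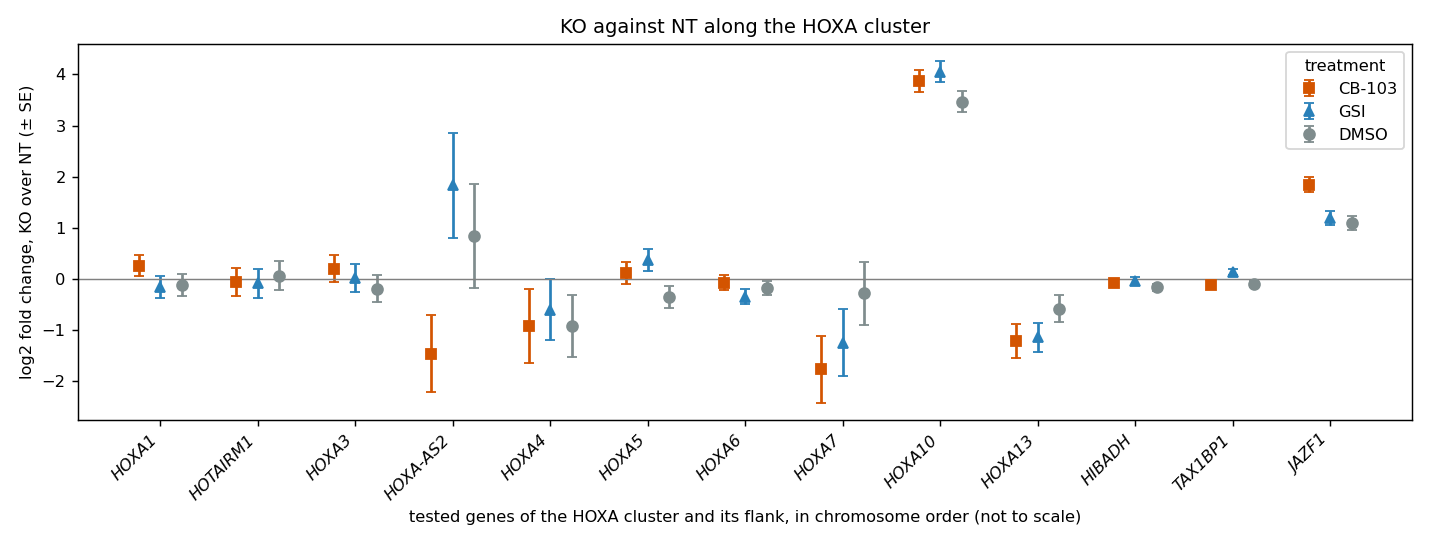
Log2 fold change of KO over NT (± SE, 3 libraries a group) for the tested genes of the HOXA cluster and its flank, in chromosome order, by treatment. HOXA10 stands at 3.47 to 4.06 and JAZF1 at 1.08 to 1.84, while the other genes lie near or below 0, apart from HOXA-AS2, whose errors are wide and which was not called.

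Few HOX genes of the other clusters were called. Of 28 HOXB, HOXC and HOXD genes, 9 were tested, and 1 was called between KO and NT under DMSO (HOXC10, lower by a log2 fold change of -0.48), 0 under CB-103 and 1 under GSI (HOXB3, at -0.46), at an edgeR adjusted p of 0.05. Of 9 TALE cofactors, 7 were tested. MEIS2 was higher in KO cells under CB-103 (1.15 ± 0.131), GSI (1.15 ± 0.127) and DMSO (0.785 ± 0.127; edgeR adjusted p = 0.00019), and averaged 9.37 ± 0.835 CPM in KO DMSO against 5.42 ± 0.801 CPM in NT DMSO. PBX2 was lower in KO cells in all 3 (-0.44, -0.37 and -0.36). MEIS1, the partner of HOXA9 in leukaemia, was lower in KO cells under CB-103 (-0.73 ± 0.277) and GSI (-0.94 ± 0.275), and had -0.28 under DMSO without passing. Of 18 chromatin regulators known to act on HOXA genes, such as KMT2A, DOT1L and the Polycomb subunits, 2 were higher and 0 lower in KO cells under DMSO: SUZ12 at 0.157 and ASXL1 at 0.149. Under CB-103, 2 were higher and 2 lower, and under GSI 3 were higher and 3 lower. Over all genes tested, 21.4% were called under DMSO, 37% under CB-103 and 33.8% under GSI.

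Of 9 leukaemia genes known as targets of HOXA9 and MEIS1, 7 were tested. In KO against NT cells, 4 were higher and 1 lower under CB-103, 1 higher and 4 lower under GSI, and 1 higher and 2 lower under DMSO. BCL2, the survival factor, was higher by 1.12 ± 0.098 under CB-103 and by 0.348 ± 0.088 under GSI. MYB and SOX4, both factors of T cell progenitors, changed sign between treatments: under CB-103 they were higher in KO cells, at 0.299 and 0.445, and under DMSO lower, at -0.23 and -0.28 (edgeR adjusted p = 0.00058, 0.00049, 0.0084 and 0.022).

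FOXN4 (ENSG00000139445, chromosome 12, 109277979 to 109309220, minus strand) had the highest CPM of the 7 genes in KO cells. It had 16, 15.5 and 15.6 CPM in KO DMSO, against 1.04, 1.05 and 0.704 CPM in NT DMSO. The KO libraries lay close together and far above NT, with a log2 fold change of 4.08 ± 0.175, or 17-fold. FOXN4 had 7.1, 7.25 and 6.36 CPM in KO CB-103, against 0.455, 0.86 and 0.816 CPM in NT CB-103, and 12, 12.1 and 12.3 CPM in KO GSI, against 0.976, 0.705 and 0.754 CPM in NT GSI. The log2 fold changes were 3.3 ± 0.182 under CB-103 and 3.89 ± 0.177 under GSI. FOXN4-201, a protein-coding transcript of 3350 bases, held 78.9% of its TPM. Of its 3 listed relatives 2 were tested: FOXN3, a repressor, was lower in KO cells under CB-103, GSI and DMSO (-0.55, -0.76 and -0.89; edgeR adjusted p = 3.2e-06, 1.4e-07 and 2.4e-08), and FOXN2 did not pass. DLL4, the ligand gene that FOXN4 is known to switch on, did not pass the count filter. Of the 5 NOTCH ligand genes 2 were tested: JAG1 was lower in KO cells in all 3 treatments (-1.14, -1.31 and -1.20) and DLL1 passed in none.

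TEAD4 (ENSG00000197905, chromosome 12, 2959330 to 3040673, plus strand) had 4.73, 5.46 and 6.56 CPM in KO DMSO, against 0.492, 0.401 and 0.305 CPM in NT DMSO, a log2 fold change of 3.8 ± 0.313. It had 4.53, 3.52 and 3.9 CPM in KO GSI, against 0.2, 0.399 and 0.13 CPM in NT GSI, a log2 fold change of 4.05 ± 0.335. In KO CB-103 it had 2.16, 1.91 and 1.93 CPM, against 0.0959, 0.0637 and 0 CPM in NT CB-103. The NT CB-103 group held 6 counts in all, near the floor, against 204 in KO CB-103, and the fitted log2 fold change of 5.08 ± 0.43 leans on those few reads. It ranged from 4.56 to 6.11 over the other ways of processing and the libraries left out.

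Of 17 other genes of the TEAD and Hippo system 11 were tested. In KO against NT cells 3 were higher and 2 lower under DMSO, 4 higher and 2 lower under CB-103, and 4 higher and 2 lower under GSI, with a median log2 fold change of 0.07, 0.15 and 0.05. VGLL4, a cofactor that competes with YAP for TEAD proteins, was higher in KO cells in all 3 treatments, by 0.691 ± 0.079 under DMSO (edgeR adjusted p = 5e-06), and averaged 29.1 ± 2.05 CPM in KO DMSO against 18.1 ± 1.93 CPM in NT DMSO. STK4, the Hippo kinase MST1, was higher by 0.668 ± 0.044 and the kinase LATS1 lower by a log2 fold change of -0.49 ± 0.048 under DMSO, and both were called under CB-103 and GSI as well. YAP1, TEAD1 and TEAD2 did not pass the count filter. TEAD3 was called under CB-103 (1.05 ± 0.348) and GSI (1.09 ± 0.323). WWTR1, which encodes TAZ, was lower in KO cells under CB-103 (-1.32 ± 0.273) and had 0.788 under DMSO without passing. Of 7 known YAP and TEAD targets 5 were tested: ANKRD1 averaged 15.4 ± 0.254 CPM in KO DMSO against 38.1 ± 1.71 CPM in NT DMSO, a log2 fold change of -1.31 ± 0.105, and CCN1 was lower too, at -0.445 ± 0.14 (edgeR adjusted p = 9.5e-08 and 0.03). AXL, AJUBA and AMOTL2 did not pass under DMSO.

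APBA2 (ENSG00000034053, chromosome 15, 28884483 to 29118315, plus strand) had 7.62, 7.34 and 6.34 CPM in KO DMSO, against 0.739, 0.525 and 0.634 CPM in NT DMSO, a log2 fold change of 3.48 ± 0.218. It had 3.81, 4.43 and 3.54 CPM in KO CB-103, against 0.384, 0.0956 and 0.262 CPM in NT CB-103, and 9.54, 9.39 and 9.7 CPM in KO GSI, against 0.926, 1.2 and 0.936 CPM in NT GSI. The groups did not overlap, and the log2 fold changes were 3.91 ± 0.25 under CB-103 and 3.23 ± 0.208 under GSI. Of 9 relatives and partners 7 were tested, and in KO DMSO against NT DMSO 1 was called higher, 1 was called lower and 5 were not called. APP averaged 151.5 ± 7.62 CPM in KO DMSO against 108.2 ± 3.19 CPM in NT DMSO (0.486 ± 0.075, adjusted p = 0.00012), and was higher under CB-103 (0.729) and GSI (0.762). LIN7C, a scaffold protein of the same complexes, was lower in all 3 (-0.46 under CB-103, -0.36 under GSI and -0.52 under DMSO). The sister gene APBA1 was called under CB-103 alone, lower at -1.16 ± 0.376.

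**Figure D3:**
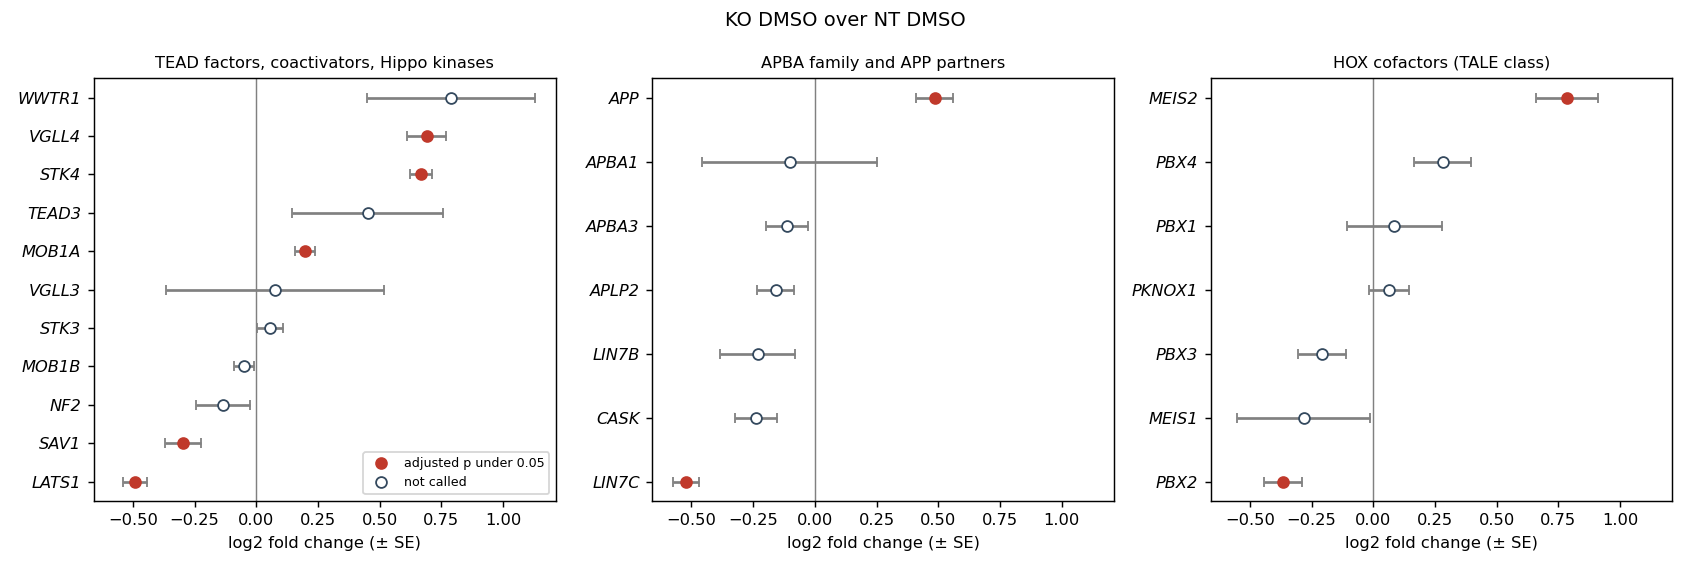
Log2 fold change of KO DMSO over NT DMSO (± SE, 3 libraries a group) for the tested genes of 3 lists, filled where the edgeR adjusted p is under 0.05. Filled points stand on both sides of 0 in each list, and the highest filled point is MEIS2 at 0.785.

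MEOX1 (ENSG00000005102, chromosome 17, 43640388 to 43661954, minus strand) ran the other way. It had 2.55, 3.84 and 3.47 CPM in KO DMSO, against 11.5, 15.1 and 14 CPM in NT DMSO, a log2 fold change of -2.04 ± 0.199. It had 1.49, 0.795 and 1.45 CPM in KO GSI, against 3.13, 2.94 and 2.47 CPM in NT GSI, a log2 fold change of -1.20 ± 0.219. Under CB-103 the order turned: MEOX1 had 1.05, 1.29 and 1.32 CPM in KO CB-103, against 0.815, 0.669 and 0.991 CPM in NT CB-103. The groups did not overlap there either, and the log2 fold change was 0.561 ± 0.242. Of 8 other somite factors 2 were tested, and PAX9 was lower in KO cells under CB-103, GSI and DMSO (-0.43, -0.58 and -0.56; edgeR adjusted p = 0.00023, 1.8e-05 and 2.7e-05), while TBX18 was called under GSI alone (-0.35).

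Levels can be compared between genes per length of transcript, in TPM. In KO DMSO the order was FOXN4 at 6.65 ± 0.0272, HOXA10 at 5.66 ± 0.715, TEAD4 at 4.6 ± 0.782, APBA2 at 3.43 ± 0.312 and MEOX1 at 2.05 ± 0.44 TPM (SD, n = 3). HOXA10 and TEAD4 lay within the sum of their SDs of each other, and APBA2 was just outside that of TEAD4. Under the inhibitors HOXA10 was above FOXN4 in KO cells. It had 6.42 ± 0.941 against 4.82 ± 0.0392 TPM in KO GSI, and 4.2 ± 0.416 against 2.85 ± 0.261 TPM in KO CB-103. In NT DMSO the order was MEOX1 at 7.84 ± 1.12, HOXA10 at 0.466 ± 0.0564, FOXN4 at 0.371 ± 0.0806, TEAD4 at 0.308 ± 0.071 and APBA2 at 0.284 ± 0.0506 TPM, and every neighbouring pair below MEOX1 lay within the sum of its SDs. In KO DMSO, 46% of tested genes were below FOXN4 and 43.9% below HOXA10, so these genes reached middling levels, while in NT DMSO 17.8% of tested genes were below HOXA10 and 15.6% below FOXN4. In bulk RNA, a level in few cells and a lower level in all cells cannot be told apart.

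Mean levels of all 5 measurable genes were lower under CB-103 than under DMSO in both genotypes, though for FOXN4 in NT cells the libraries overlapped. The log2 fold changes of CB-103 over DMSO were, for MEOX1, -1.43 ± 0.218 in KO cells and -4.03 ± 0.228 in NT cells. TEAD4 had -1.48 ± 0.267 in KO and -2.76 ± 0.508 in NT cells, APBA2 -0.85 ± 0.185 in KO and -1.29 ± 0.288 in NT cells, and HOXA10 -0.39 ± 0.165 in KO and -0.80 ± 0.251 in NT cells. FOXN4 alone of the 5 had the more negative value in KO cells, with -1.18 ± 0.146 in KO cells and -0.40 ± 0.21 in NT cells. The responses of KO minus NT cells were 2.6 ± 0.312 for MEOX1, 1.28 ± 0.59 for TEAD4, 0.437 ± 0.339 for APBA2, 0.404 ± 0.298 for HOXA10 and -0.78 ± 0.257 for FOXN4. Over all genes tested, 48.6% passed the edgeR test for CB-103 against DMSO in KO cells, 58.2% in NT cells and 14.6% for the difference of the responses; CB-103 was part of the choice of these genes, and nothing is read from the comparison. Under CB-103, MEOX1 averaged 1.22 ± 0.15 CPM in KO cells and 0.825 ± 0.161 CPM in NT cells (SD, n = 3).

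**Figure D4:**
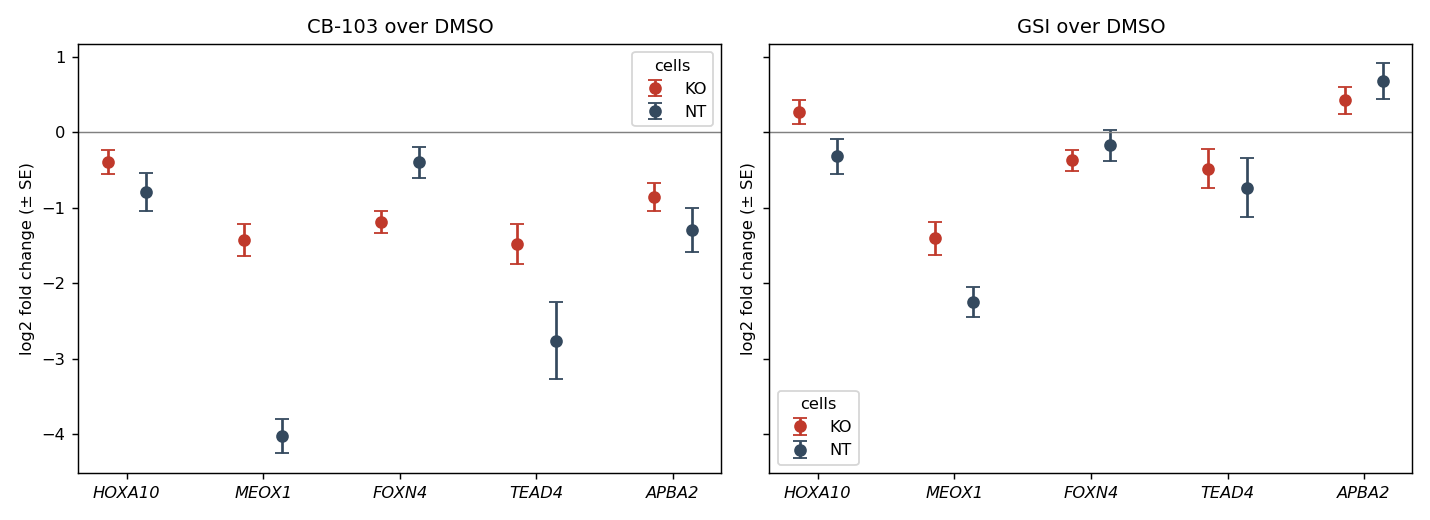
Log2 fold change (± SE, 3 libraries a group) of CB-103 over DMSO, left, and GSI over DMSO, right, in KO (red) and NT (blue) cells for the 5 genes that passed the count filter. MEOX1 fell most under both inhibitors in NT cells (-4.03 and -2.25), and APBA2 had positive values under GSI in both genotypes.

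The response to GSI was not itself used to choose the genes, though its libraries enter differences that were. NOTCH targets fell under GSI in both genotypes, as DTX1 shows at 9.07 ± 0.794 CPM in KO GSI against 80.5 ± 2.18 CPM in KO DMSO, and 16 ± 1.13 CPM in NT GSI against 174.6 ± 13.2 CPM in NT DMSO. MEOX1 fell in both. The log2 fold change was -1.41 ± 0.218 in KO cells, 2.65-fold lower (edgeR adjusted p = 0.00017; 95% interval -1.88 to -0.93), and -2.25 ± 0.201 in NT cells, 4.74-fold lower (adjusted p = 2.4e-07; -2.68 to -1.81). All 3 GSI libraries were below all 3 DMSO libraries in each genotype. The difference between the genotypes, 0.84 ± 0.294, did not pass (adjusted p = 0.12; 95% interval 0.2 to 1.48).

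In KO cells MEOX1 was the only 1 of the 5 tested genes called under GSI, beside 19.3% of all genes tested. FOXN4 had -0.37 ± 0.142 in KO cells, with every KO GSI library below every KO DMSO library, and did not pass (edgeR adjusted p = 0.078; 95% interval -0.68 to -0.06). It passed in 4 of the other ways of fitting the data, with adjusted p from 0.0069 to 0.046. APBA2 had 0.426 ± 0.179 (adjusted p = 0.11), TEAD4 -0.49 ± 0.257 (0.22) and HOXA10 0.269 ± 0.163 (0.29), none of them called; APBA2 passed in 3 of the other fits and TEAD4 in 1.

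In NT cells 2 of the 5 were called under GSI, MEOX1 and APBA2, beside 24.7% of all genes tested. APBA2 rose by a log2 fold change of 0.674 ± 0.236 (edgeR adjusted p = 0.046; 95% interval 0.16 to 1.19), with all 3 NT GSI libraries above the NT DMSO ones. That call was lost when any 1 of the 6 libraries was left out (adjusted p = 0.05 to 0.15) and stands on the edge of the threshold. HOXA10 had -0.32 ± 0.237 (adjusted p = 0.45), FOXN4 -0.175 ± 0.204 (0.63) and TEAD4 -0.74 ± 0.389 (0.19) in NT cells. TEAD4 passed without NT GSI replicate 2 (adjusted p = 0.038, at -1.24). The GSI response of KO minus NT cells was called for 0 of the 5, beside 2.79% of all genes (484, and 36 to 856 with a library left out). At an unadjusted edgeR p under 0.05, 1 passed, MEOX1 (unadjusted 0.011), and DESeq2 called 0 of the 5. For HOXA10 the 95% interval of that difference ran from -0.04 to 1.22 and for FOXN4 from -0.74 to 0.35. For TEAD4 it ran from -0.75 to 1.24 and for APBA2 from -0.89 to 0.39. Differences inside these intervals remain possible.

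Among the partner genes, APP fell under GSI, with log2 fold changes of -0.71 ± 0.076 in KO cells and -0.99 ± 0.077 in NT cells, and ANKRD1 fell with -4.75 ± 0.147 in KO cells and -5.48 ± 0.138 in NT cells (edgeR adjusted p = 3e-06, 4.1e-08, 1.7e-13 and 7.6e-15). JAG1 fell as well, with -1.16 ± 0.2 in KO cells and -1.05 ± 0.184 in NT cells. Of the 7 other HOXA genes tested, 0 were called under GSI in either genotype by edgeR. While APP fell in both genotypes, the GSI values of APBA2 were positive in both but weakly backed. The APBA2 value was not called in KO cells (edgeR adjusted p = 0.11). In NT cells it stood on the edge of the threshold (adjusted p = 0.046).

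The makeup of transcripts was read as the share of a gene's TPM held by its most abundant transcript over the 18 libraries. For TEAD4 and APBA2 that transcript was picked mainly on KO libraries, where nearly all their reads lie, which favours a higher share in KO cells, so the genotypes are set side by side with no test. TEAD4-202 held 82.3% of TEAD4 TPM overall. Its share was 86.6% ± 13.7 in KO DMSO against 53.4% ± 40.9 in NT DMSO, 84.9% ± 6.08 in KO GSI against 66.7% ± 57.7 in NT GSI, and 81% ± 21.4 in KO CB-103 against 0% in the 2 NT CB-103 libraries with any TEAD4 TPM. APBA2-205 held 46.8% ± 20.2 in KO CB-103 against 0% in NT CB-103, 27.3% ± 8.8 in KO GSI against 16.4% ± 28.5 in NT GSI, and 29.9% ± 24.2 in KO DMSO against 16.4% ± 15.4 in NT DMSO. The shares in NT cells rest on few reads. For GSI against DMSO, the share passed an exact two-sided permutation test within genotypes for 0 of the 4 genes tested, with differences of 5.79 percentage points for TEAD4, 5.4 for FOXN4, 2.24 for MEOX1 and -1.29 for APBA2 (each with an adjusted p of 0.94).

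The nearest tested gene on each side of a gene was looked at after the values were known. Next to TEAD4, 764 bases past its end on the same strand, the long noncoding RNA AC125807.2 (ENSG00000250899, chromosome 12, 3041437 to 3044950) averaged 4.44 ± 0.0746 CPM in KO DMSO against 0.25 ± 0.00671 CPM in NT DMSO. Its log2 fold change was 4.13 ± 0.179 under DMSO, 3.85 ± 0.182 under GSI and 2.58 ± 0.193 under CB-103 (edgeR adjusted p = 4.8e-11, 1.2e-10 and 2.3e-08), close to TEAD4 under DMSO and GSI and below it under CB-103. On the other side TULP3, 18190 bases away, had 0.396 ± 0.071 under DMSO (adjusted p = 0.00051). Next to FOXN4, MYO1H, an unconventional myosin 38683 bases away, averaged 0.661 ± 0.198 CPM in KO DMSO against 0.12 ± 0.0636 CPM in NT DMSO, with a log2 fold change of 2.4 ± 0.47 (adjusted p = 0.0011), and ACACB, an acetyl-CoA carboxylase gene 9753 bases away, had 0.523 ± 0.109 (adjusted p = 0.0018). The neighbours of APBA2 (PDCD6IPP2 and NSMCE3) and of MEOX1 (DHX8 and WHSC1L2P) passed in none of the 3 treatments. Strand use in the counting is not given in the sources used here.

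**Figure D5:**
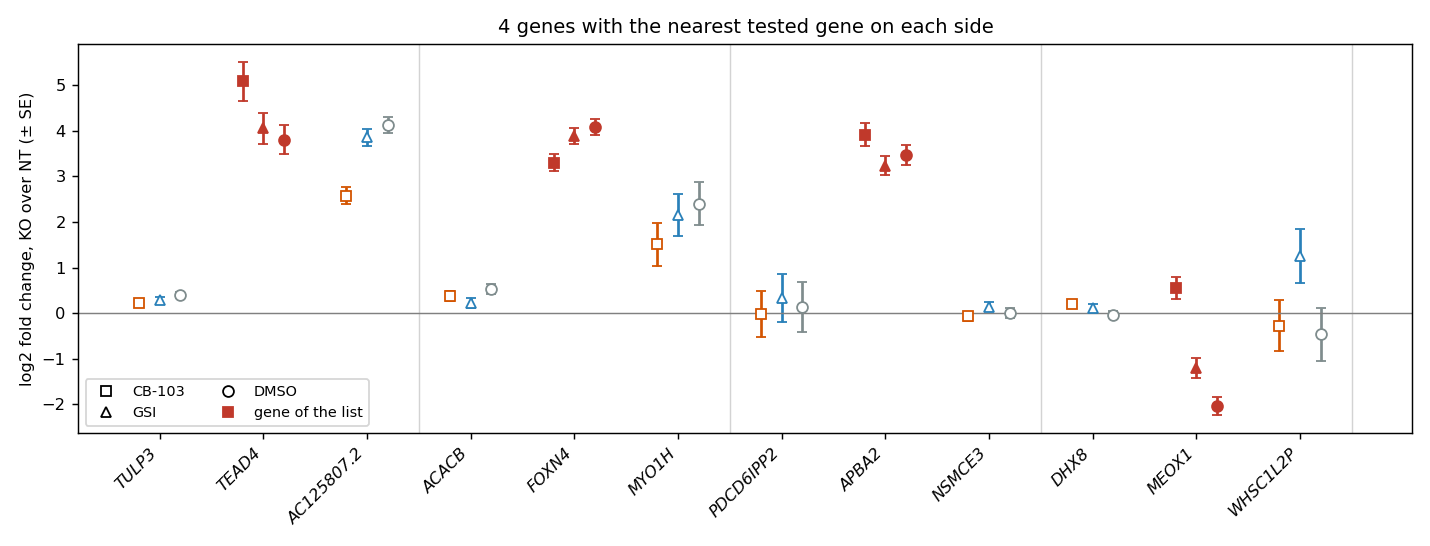
Log2 fold change of KO over NT (± SE, 3 libraries a group) for TEAD4, FOXN4, APBA2 and MEOX1 (red) and the nearest tested gene on each side (open symbols), by treatment. AC125807.2 beside TEAD4 reaches 2.58 to 4.13 and MYO1H beside FOXN4 1.51 to 2.4, and none of the neighbours of APBA2 and MEOX1 passed the test.

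Genes whose level followed each of the 5 most closely were read from Pearson's r of log2 CPM over the 18 libraries, among tested genes of at least 1 CPM on average. These values are a description, given without p, and how much of an r comes from genotype or treatment was not computed. HOXA10, FOXN4, TEAD4 and APBA2 carry a large step between genotypes, which enters their r. MEOX1 and the 2 genes that followed it also had lower means under both inhibitors than under DMSO in both genotypes. HOXA10 was followed by FOXN4 (r = 0.98) and the lipid acyltransferase gene LPGAT1 (0.978), and FOXN4 by AC125807.2 (0.982) and HOXA10. TEAD4 was followed by the kinase gene STK17B (0.984) and by SEMA7A (0.984), a semaphorin, and APBA2 by the sodium channel gene SCN3A (0.983) and MAGEF1 (0.981). SCN3A averaged 160 CPM in KO DMSO against 43.6 CPM in NT DMSO. MEOX1 was followed by RIPK4 (0.947), a kinase gene, and EVL (0.946), an actin regulator; EVL averaged 168 CPM in KO DMSO against 332 CPM in NT DMSO, and 81.2 CPM in KO CB-103 against 101 CPM in NT CB-103.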

How the data were processed

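PolyA-selected, stranded mRNA libraries of RPMI-8402 cells, 18 in all, were sequenced as paired reads, per the labels' protocols. Salmon 1.4.0, HISAT2 2.2.1, FastQC 0.11.9 and bcl2fastq 2.20, with the build hg38, are listed in the submitters' processing notes. The authors deposited a table of estimated counts per gene rounded to whole numbers (58735 genes) and, per library, Salmon's transcript table with TPM values and estimated counts for 206601 transcripts. A deposited table of variance-stabilised values was not used. Coordinates and transcript names come from GENCODE release 29, promoters from RefSeq (GRCh38.p14). Gene symbols were found for 41937 identifiers.

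The rounded counts were fitted with edgeR 4.0.16 (R 4.3.3; quasi-likelihood F test, TMM factors of 0.954 to 1.03, filterByExpr, 1 mean for each of the 6 groups, 12 residual degrees of freedom), with Benjamini-Hochberg adjustment over 17346 genes and a threshold of 0.05. CPM uses TMM-scaled library sizes. Transcript shares (share of a gene's TPM in the transcript with the highest mean) were compared between GSI and DMSO by exact two-sided permutation over libraries; shares between genotypes and under CB-103 had been planned as tests and are given without one, since the choice of the genes used those contrasts. In the shares, 1 library without TEAD4 TPM was left out. Scripts were tested on simulated data. Alternatives were DESeq2 1.42.0 (size factors, and its Wald test), no count filter, transcript sums, a replicate block, only the groups compared, replicates 2 and 3, and each library left out.

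The 7 genes and the 13 lists of related genes were chosen with earlier results of these data known. One gene of these lists is not reported here, and counts over its list leave it out. Named were the 7 genes, the genes of the HOXA cluster, of each other list the called genes with the largest changes, and the 2 genes most correlated with each of the 5 measurable genes.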

Additional observations from a re-analysis of the deposited data

Results flagged for a closer look

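Among the genes of the related lists, the response to CB-103 differed between KO and NT cells, by the edgeR test of the difference itself (KO minus NT, log2), for 13 genes. The difference was positive, a less negative or more positive response in KO cells, for BCL2 (0.92), JAZF1 (0.76), SOX4 (0.73), ERG (0.66), AJUBA (0.61), MYB (0.53), VGLL4 (0.5), NPM1 (0.48), FOXN3 (0.34) and MOB1A (0.29). JAZF1 averaged 11.6 CPM in KO CB-103 and 11 CPM in KO DMSO, but 3.24 CPM in NT CB-103 and 5.18 CPM in NT DMSO. It was negative for WWTR1 (-2.11), PBX4 (-0.79) and KDM6A (-0.27). The response to GSI differed for NPM1 (0.37), DOT1L (-0.39) and ASXL1 (-0.26), with edgeR adjusted p of 0.029, 0.043 and 0.047. Over all genes tested the shares called were 14.6% for CB-103 and 2.79% for GSI. The tested genes of the lists were not counted together, so no share of theirs stands beside these. Nothing is read from the counts about the lists as a set. Groups of 3 libraries are too small to screen for single outlying samples.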

How the results depend on the processing

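Of the tested results of the 7 genes, 5 changed sign under some alternative, none of them called in either. The TEAD4 GSI response of KO minus NT (0.25, log2) was -0.002 with transcript sums, -0.243 with replicates 2 and 3 only, and -0.061 to 0.757 with a library left out (-0.061 without NT GSI replicate 3). The transcript shares under GSI against DMSO became, with replicates 2 and 3 only, 2.74 percentage points for APBA2, -7.25 for MEOX1 and -9.05 for TEAD4. With a library left out they ran from -9.51 to 5.68 for APBA2, -8.88 to 12.5 for FOXN4, -3.45 to 11.2 for MEOX1 and -2.55 to 22.5 for TEAD4; the cause was not tested. Under GSI in KO cells 1 of the 5 genes was called, against 4 with transcript sums, 2 with the replicate block, 3 with only the groups compared and 3 with DESeq2's Wald test. Under GSI in NT cells 2 were called, against 1 without the count filter, 1 with transcript sums, 1 with only the groups compared, 1 with replicates 2 and 3 only, and 1 to 2 with a library left out; MEOX1 was called each time. The difference of the GSI responses had 0 genes called of the 5, and 1 (MEOX1, adjusted p = 0.034) with transcript sums. Over all genes that difference was called for 484, against 997 with transcript sums, 1291 with the replicate block, 42 with replicates 2 and 3 only, 1257 with DESeq2's Wald test, and 36 (without NT GSI replicate 3) to 856 (without NT GSI replicate 2) with a library left out; leaving out any of 11 libraries moved it by over 1.5 times, and the cause was not tested. Replicate numbers were not taken to pair the libraries, since the labels tie them to no shared culture or day and not every same-numbered pair had a residual correlation over 0.1 (31 of 45 did, from -0.0713 to 0.352). The median was 0.127 for the same number and -0.136 for other numbers, and 15 of 18 libraries correlated best with their own number, a hint from the data and not from the design. With the block FOXN4 was called under GSI in KO cells (adjusted p = 0.046), and no other call of the 5 genes changed. The low counts of TEAD4 and APBA2 in NT CB-103 limit their fold changes most: KO over NT under CB-103 was 4.56 to 6.11 (log2) for TEAD4 and 3.57 to 4.42 for APBA2.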
